A study of Mus musculus with 30 samples.

Results

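The transcripts of 30 genes of cholesterol synthesis, uptake and control were followed in the ovaries of mice that had drunk DSS before puberty and in the ovaries of their littermates. The genes were chosen by name, by their role in the pathway: 19 enzymes of synthesis, 5 genes of the SREBP control system, and 6 genes of uptake, transport, storage and export. All 30 were found once each among the 50600 genes of the count table, and all 30 passed the filter on low values (a mean of 5 normalized counts or more over the mice), which 14646 genes passed in all. DSS, known in such studies as dextran sulfate sodium, is a polymer given in drinking water to injure the lining of the colon. Sexually immature C57BL/6 females received 3% DSS for 7 days, and their littermates served as controls without a stated treatment. The left and the right ovary of each animal were taken after sexual maturity and sequenced separately, which gave 14 libraries from 7 DSS mice and 16 libraries from 8 control mice. The labels give no age in days and no stage of the estrous cycle.

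The synthesis pathway builds cholesterol from acetyl-CoA through mevalonate, farnesyl pyrophosphate, squalene and lanosterol. When sterols are scarce in the endoplasmic reticulum, SCAP carries the precursor of SREBP-2 to the Golgi, where it is cut, and the released fragment switches on the synthesis and uptake genes; INSIG proteins hold SCAP back when sterols are plentiful. In the ovary, cholesterol is also the raw material of progesterone, androgens and estrogens, and the steroid-making cells of rodents take much of it from high-density lipoprotein through SCARB1.

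Libraries were made by CEL-Seq, which counts a tag near the 3′ end of each transcript. Depth, as reads recovered from the deposited table, ranged from 3095386 to 8564770 a library (median 4305814.5). Levels below are the authors' normalized counts; they are not scaled to transcript length, so levels are compared between ovaries and not between genes. In such bulk samples, fewer cells of a type and less RNA per cell cannot be told apart. 7 ovaries of 6 mice (4 DSS and 3 control ovaries) held more than 5000 normalized counts of Ovgp1, the oviduct glycoprotein, so some oviduct was present. All 8 granulosa cell and all 7 oocyte markers were above 0 in every library. The number that stands before the mouse number in the sample titles is odd for left and even for right ovaries. The labels do not say what that number means, so whatever it stands for cannot be told apart from side. Some genes of the set overlap others: Tm7sf2 with Vps51, Fdps with Rusc1 and Scarb1 with Gm42633 on the same strand, and Cyp51 with Akap9, Fdft1 with Ctsb, Scap with Ptpn23, Srebf1 with Rai1, Npc1 with Rmc1, Lbr with Dnah14 and Insig2 with Gm37174 on the other strand. Idi1, Fdps and Fdft1 share 3′ sequence with predicted gene copies, so their levels are uncertain. The same holds for Dhcr7, which shares it with D10Wsu102e, Dhtkd1 and several predicted genes, and for Tm7sf2, which shares it with Vps51.

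Promoters are shown for 4 genes: Hmgcs1, Cyp51 and Msmo1, whose levels followed the rest of the enzymes closely, and Srebf2, which had the smallest p of the 30 genes in the DSS comparison (rank 59 of the 14646 tested genes). Each run is the 250 bases before the RefSeq start site, 5′ to 3′ on the gene's own strand, on GRCm38.p6. They lie at chr13:119690101-119690350 on the plus strand (Hmgcs1), chr5:4104698-4104947 on the minus strand (Cyp51), chr8:64733579-64733828 on the minus strand (Msmo1) and chr15:82147019-82147268 on the plus strand (Srebf2). Capitals mark matches on either strand to TCACNCCA, a core form of the sterol regulatory element that SREBPs bind, and to CCAAT (read as ATTGG on the other strand), the box bound by NF-Y.
Hmgcs1: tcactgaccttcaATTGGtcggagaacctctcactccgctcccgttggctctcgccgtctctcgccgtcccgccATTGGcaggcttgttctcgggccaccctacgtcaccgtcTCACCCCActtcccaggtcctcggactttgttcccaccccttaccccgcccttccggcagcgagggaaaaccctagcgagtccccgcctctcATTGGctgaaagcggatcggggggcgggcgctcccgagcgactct
Cyp51: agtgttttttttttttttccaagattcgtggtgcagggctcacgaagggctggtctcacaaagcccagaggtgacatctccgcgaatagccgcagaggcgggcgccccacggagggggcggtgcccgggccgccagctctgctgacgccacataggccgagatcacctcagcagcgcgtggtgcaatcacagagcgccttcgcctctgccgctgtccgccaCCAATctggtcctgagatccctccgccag
Msmo1: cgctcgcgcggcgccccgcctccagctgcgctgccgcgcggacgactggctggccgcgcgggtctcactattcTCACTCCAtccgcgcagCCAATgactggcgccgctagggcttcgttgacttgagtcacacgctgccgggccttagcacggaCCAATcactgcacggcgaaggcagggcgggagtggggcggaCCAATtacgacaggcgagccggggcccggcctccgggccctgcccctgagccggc
Srebf2: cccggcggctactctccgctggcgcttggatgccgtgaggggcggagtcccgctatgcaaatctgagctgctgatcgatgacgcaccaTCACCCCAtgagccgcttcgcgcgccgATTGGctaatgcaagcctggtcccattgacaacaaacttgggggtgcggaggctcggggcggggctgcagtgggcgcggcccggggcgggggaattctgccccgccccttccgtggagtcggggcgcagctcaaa
The sterol element core began 137 bases before the RefSeq start in Hmgcs1, 177 bases before it in Msmo1 and 162 bases before it in Srebf2. It was not found in the Cyp51 window. The gene positions of the count table differ from these starts. They place the upstream end of Cyp51 at 4104746 and that of Msmo1 at 64733792. Part of the Cyp51 window and much of the Msmo1 window, its sterol core included, thus lie inside the annotated gene. Hmgcs1 starts there at 119690462, past the end of its window, and Srebf2 at 82147266. RefSeq windows were at hand for 24 of the 30 genes, and these 3 were the genes with that core. Of the 27025 genes with a window, 4.20% held it. CCAAT, a much shorter motif, was present in 21 of the 24 genes and in 15 of the 16 enzymes with a window, against 37.5% of the 27025 genes. The 2 motifs do not overlap in these 4 windows. A match describes the letters of a window and was not tested as a binding site.

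Most synthesis enzymes moved together from ovary to ovary, and 3 ovaries stood apart with low levels of most of these enzymes. These were the left ovary of mouse DSS_11.2 and both ovaries of mouse control_15.3. They were picked after their values were seen, as the libraries whose mean standardised level over the 19 enzymes was below -1: the left ovary of mouse DSS_11.2 had -2.13, and the left and right ovaries of mouse control_15.3 had -1.78 and -1.73. The next lowest ovary, the right ovary of mouse control_15.4, had -0.49. The right ovary of mouse DSS_11.2 had 0.11, within the range of the others, so the ovaries of this animal differed. What follows about the 3 ovaries is a description, since these genes chose them.

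In all 3 ovaries, 16 of the 30 genes, 13 of them enzymes, were below the lowest of the other 27 ovaries. Hsd17b7 encodes a 3-ketosteroid reductase of late synthesis that also makes estradiol, and was the gene with the lowest share of its usual level. It had 81.0 normalized counts in the left ovary of mouse DSS_11.2, and 139 and 194 in the left and right ovaries of mouse control_15.3, against a median of 1445 and a lowest value of 693 in the other 27 ovaries. Those values are 5.61%, 9.64% and 13.41% of the median. Scarb1, the high-density lipoprotein receptor, had 87.4 in the left ovary of mouse DSS_11.2, and 298 and 268 in the left and right ovaries of mouse control_15.3, against a median of 754.

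The early enzymes were low as well. Hmgcs1, which makes HMG-CoA, had 199 in the left ovary of mouse DSS_11.2, and 318 and 302 in the left and right ovaries of mouse control_15.3, against a median of 751 in the other 27. Mvd, which makes isopentenyl pyrophosphate, had 48.0 in the left ovary of mouse DSS_11.2, and 63.7 and 59.6 in the left and right ovaries of mouse control_15.3, against a median of 209. Further down the pathway, Sqle, the squalene epoxidase, had 30.9 in the left ovary of mouse DSS_11.2, and 26.5 and 34.2 in the left and right ovaries of mouse control_15.3, against a median of 81.9. In both genes the 3 ovaries were below every other ovary.

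Another 8 genes were within the range of the other 27 ovaries or above it in all 3: the enzymes Tm7sf2, Lbr and Ebp, the regulators Srebf1, Srebf2 and Insig2, and the transporters Npc1 and Abca1. Lbr, a sterol C14 reductase that is also a receptor of the nuclear lamina, had 43.7 in the left ovary of mouse DSS_11.2, and 49.1 and 42.1 in the left and right ovaries of mouse control_15.3, against a median of 38.3. Abca1, which exports cholesterol to apolipoprotein A-I, had 624 in the left ovary of mouse DSS_11.2, and 812 and 890 in the left and right ovaries of mouse control_15.3, against a median of 700. Srebf2 itself had 91.7 in the left ovary of mouse DSS_11.2, and 135 and 117 in the left and right ovaries of mouse control_15.3, against a median of 127.

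Markers of other cell types also differed in these libraries. The summed level of the 6 luteal markers, Avpr1a, which did not pass the filter, among them, was 494.7 in the left ovary of mouse DSS_11.2. It was 1015 and 974.8 in the left and right ovaries of mouse control_15.3, against 1677 to 4514 (median 3344) in the other 27. Lhcgr and Ptgfr, the most abundant of the 6, were below every other ovary in all 3. Lhcgr had 141.8 in the left ovary of mouse DSS_11.2, and 371 and 421 in the left and right ovaries of mouse control_15.3, against a median of 2073. The other tested luteal markers, Akr1c18, Onecut2 and Parm1, were within the range of the 27 ovaries or, for Parm1 in the right ovary of mouse control_15.3, just above it. The 5 luteal markers that passed the filter were above 0 in every library.

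The sum of the 4 tested theca and interstitial markers was 9407 in the left ovary of mouse DSS_11.2, and 15126 and 15277 in the left and right ovaries of mouse control_15.3, against 19300 to 27516 in the other 27. Most of that sum is Cyp11a1, the side-chain cleavage enzyme, and Aldh1a1, a retinaldehyde dehydrogenase. Cyp11a1 and Cyp17a1, the androgen-making enzyme, were below every other ovary in all 3, and Aldh1a1 in the left ovaries of mice DSS_11.2 and control_15.3. Nr2f2 was not low, with 1245 in the left ovary of mouse DSS_11.2, and 1496 and 1158 in the left and right ovaries of mouse control_15.3, against a median of 1017. Insl3, a defining theca marker, was 0 in every library.

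The left ovary of mouse DSS_11.2 also differed in most other marker sums. It had the highest sums of the 8 oviduct markers (68318) and of the 7 adipocyte markers (10151), with Lep, which did not pass the filter, counted in. It was above the other 27 ovaries for surface epithelium (1954, against 305.3 to 1183) and macrophages (550, against 250.2 to 465). It was below them for oocytes (523, against 843 to 1921) and endothelium (429, against 472 to 636). Every oocyte marker was below the other 27, but of the endothelial markers only Cdh5 and Eng were, with Pecam1, Kdr and Tek within the range. The macrophage markers Cd68, Adgre1 and Mrc1 and the surface epithelium marker Msln were also within it. The granulosa sum of this ovary, 8951, mostly Inha, Inhbb and Amh, was within the 8568 to 23283 of the other 27. Single granulosa markers were lower: Fshr, Foxl2, Amhr2, Inha and Cyp19a1 were each below every other ovary. Foxl2 had 64.0 there against a lowest value of 107.7 in the other 27, and Inha 5022 against 5960. Amh, Hsd17b1 and Inhbb were within the range. Both ovaries of mouse control_15.3 were within the range of the other 27 in each of these 7 sums, the granulosa sum being 18466 on the left and 17379 on the right. Single markers of this mouse were outside that range. Amhr2 was above it in both ovaries (152.5 on the left and 153.4 on the right, against at most 139.3). On the left, Amh, Zp3 and Oosp1 were above it, and Muc16, Msln, Ccdc153, Tekt1 and Rsph1 below it. On the right, Csf1r was below it. The part of these cell types in the low enzyme levels was not tested.

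**Figure D1:**
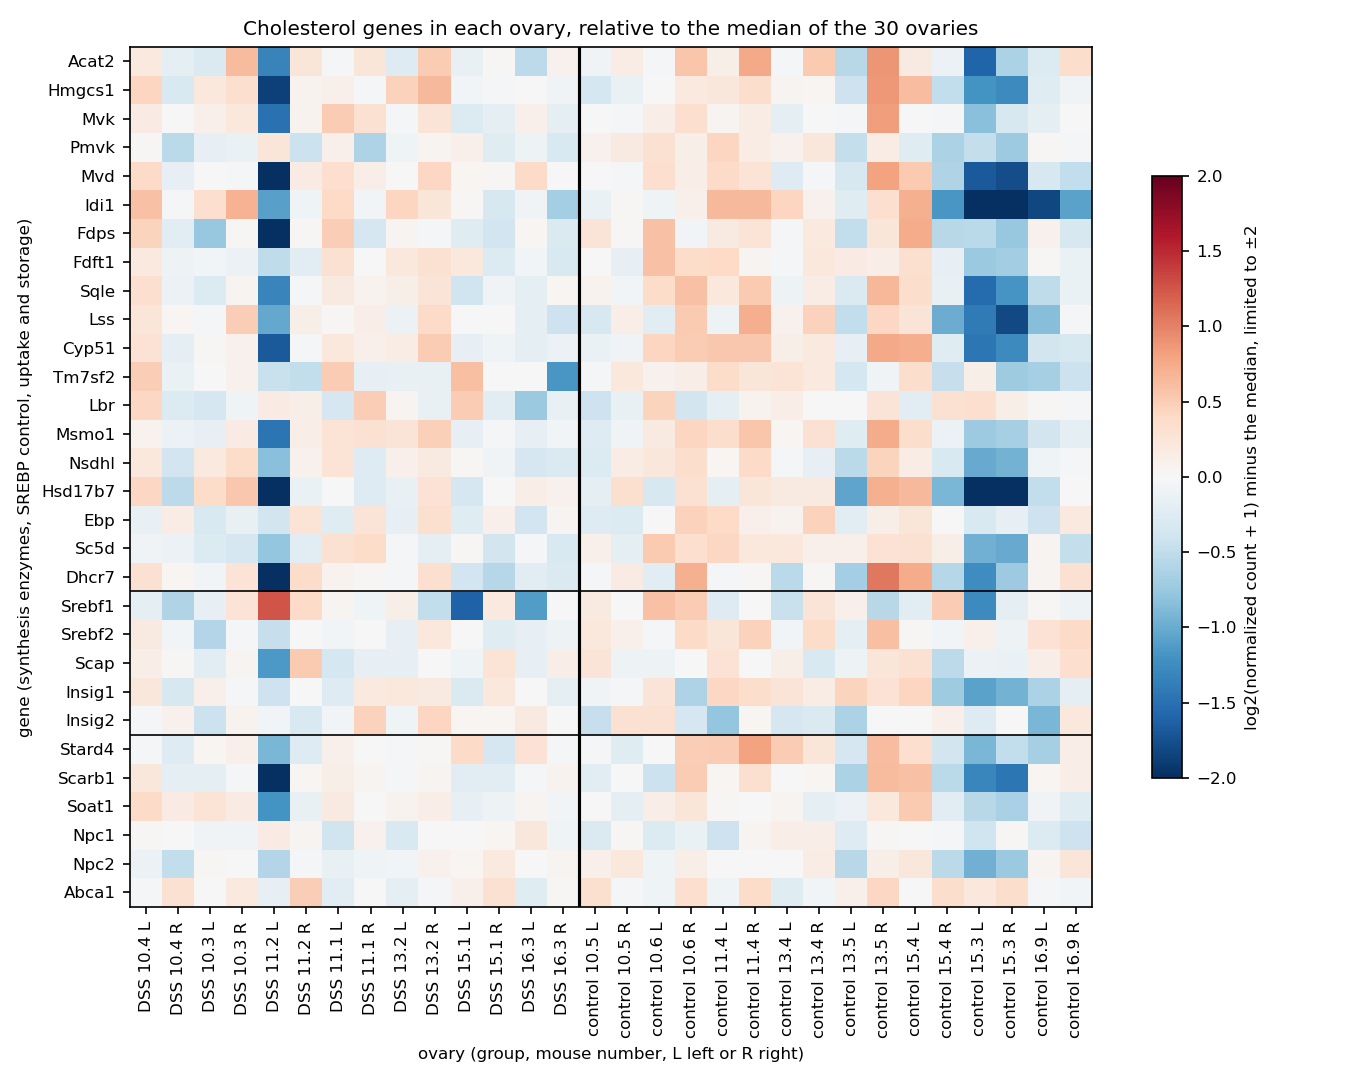
Heat map of the 30 genes (rows, grouped as synthesis enzymes, SREBP control, and uptake, transport and storage) in the 30 ovaries (columns, DSS mice left of the black line, control mice right of it); colour is log2(normalized count + 1) minus the gene's median over the 30 ovaries. The left ovary of mouse DSS_11.2 and both ovaries of mouse control_15.3 are blue over most enzymes and Scarb1, and not over Lbr.

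Across all 30 ovaries, the median Pearson r between the log2 levels of 2 enzymes was 0.65 over the 171 pairs, and 67.3% of the pairs were above 0.5. Among all pairs of tested genes the median was -0.0015, and 1.597% of pairs were above 0.5. Without the 3 low ovaries the enzyme median was 0.47 and 45.6% of pairs were above 0.5, against 1.19% of all gene pairs. With the mean of each of the 4 groups of treatment and side removed, the enzyme median was 0.75. These values are descriptions over libraries, of which 2 come from each mouse, and both genes of a pair share a library and its scaling factor.

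Set against the mean of the other enzymes, Cyp51, the lanosterol demethylase, had the highest r (0.98 over 30 ovaries and 0.93 over the 27). Sqle (0.95 and 0.86), Msmo1, a sterol C4 methyl oxidase (0.93 and 0.89), Hmgcs1 (0.93 and 0.81) and Mvd (0.93 and 0.77) followed. Of the genes outside synthesis, Scarb1 (0.87 and 0.71), Soat1, which esterifies cholesterol for storage (0.84 and 0.57), and Stard4, which carries sterols between membranes (0.82 and 0.70), tracked the enzymes. Npc2, a lysosomal cholesterol carrier, had 0.74 and 0.40, and Insig1 had 0.68 and 0.44.

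Several genes of the set did not follow. Lbr had an r of -0.17 over 30 ovaries and 0.05 over the 27, Srebf1 -0.05 and 0.00, Abca1 -0.03 and 0.03, Npc1, the lysosomal membrane partner of NPC2, 0.01 and 0.09, and Insig2 0.11 and 0.19. Srebf2 was in between, with 0.50 and 0.52. Scap had 0.50 over 30 ovaries and 0.17 over the 27. The 5 tested genes from outside the set with the highest r with the mean of all 19 enzymes were Lipg (endothelial lipase), Hacd3 (a fatty acid elongation enzyme), Lrp8 (a receptor of the LDL receptor family), Lhcgr (the luteinizing hormone receptor) and Cst8 (a cystatin). Over 30 ovaries, the setting in which they were picked, these had r of 0.91 for Lipg, 0.90 for Hacd3, 0.90 for Lrp8, 0.90 for Lhcgr and 0.89 for Cst8; over the 27 ovaries Lipg had 0.78, Hacd3 0.78, Lrp8 0.71, Lhcgr 0.69 and Cst8 0.63. Over the 27 the list changed: the steroid gene Star had the highest r from outside the set (0.81, rank 5 of all tested genes). Lrp8, Lhcgr and Cst8 then had ranks of 27, 39 and 83. Of the 50 tested genes with the highest r over 30 ovaries, 14 belonged to the set, the enzymes being part of their own mean.

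**Figure D2:**
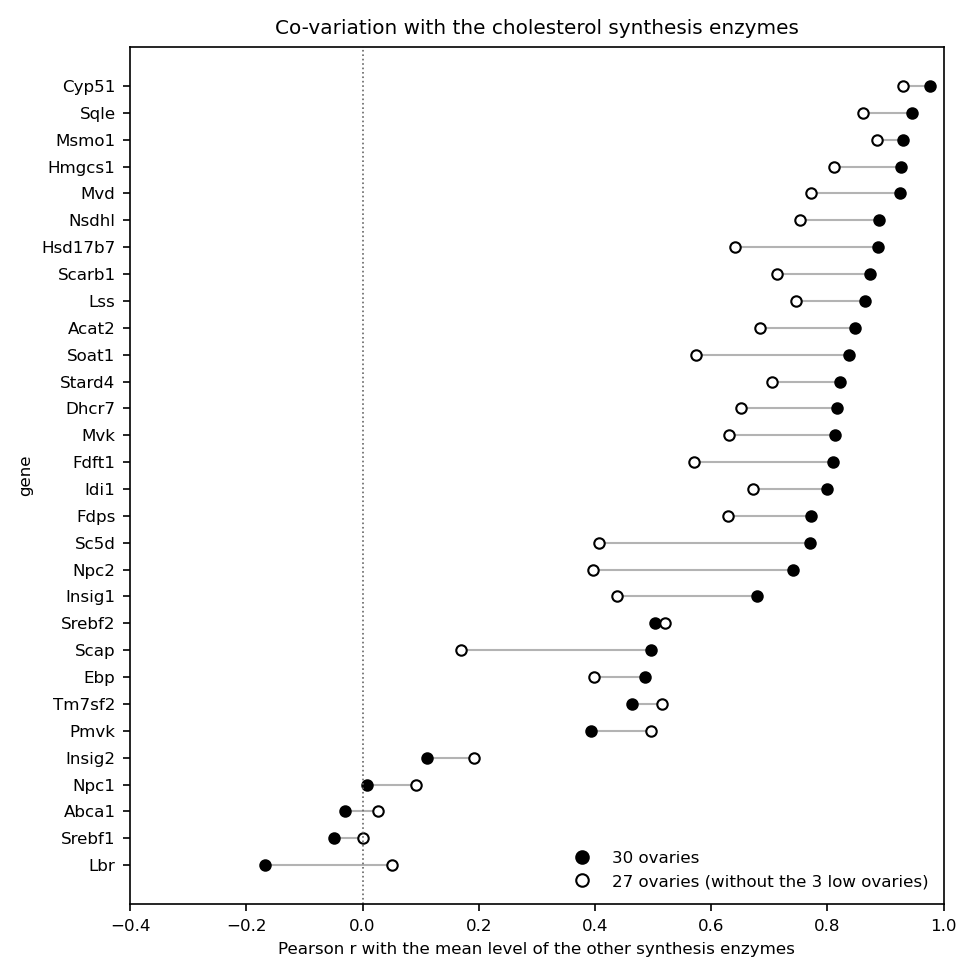
Pearson r of each of the 30 genes (rows) with the mean standardised log2 level of the other synthesis enzymes (horizontal axis), over all 30 ovaries (filled) and over the 27 ovaries without the 3 low ones (open). Cyp51 has the highest value in both (0.98 and 0.93), while Lbr, Srebf1, Abca1, Npc1 and Insig2 have values from -0.17 to 0.19.

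Levels also differed between animals. The intraclass correlation, the share of a gene's variation that the ovaries of a mouse have in common, had a median of 0.35 over the enzymes and 0.31 over the 30 genes, against 0.12 over all tested genes. Sc5d, the sterol C5 desaturase, had the highest (0.78), followed by Fdft1, the squalene synthase (0.69), and Idi1, the isopentenyl isomerase (0.61). Scap (-0.47), Insig2 (-0.36) and Lbr (-0.31) had the lowest: for these genes the ovaries of a mouse were no more alike than ovaries of different mice. Ovaries of a mouse could sit apart: in mouse control_13.5 the mean standardised enzyme level was -0.47 on the left and 1.12 on the right, and in mouse control_15.4 it was 0.76 on the left and -0.49 on the right. The intraclass correlations include mouse control_15.3, whose left and right ovaries were both low in the enzymes. For Sc5d, Fdft1 and Idi1, both ovaries of this mouse were below every ovary not set apart as low. Intraclass correlations without mouse control_15.3 were not computed, so how far they rest on this animal was not tested.

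Over the 15 mice, 8 pairs of genes were tested with a permutation test of 100000 draws, two-sided, and adjusted over the 8. Hmgcs1 and Sqle had a Pearson r of 0.90 (permutation p = 0.00015, adjusted p = 0.0006; Spearman rho 0.76, permutation p = 0.00153, adjusted p = 0.0122). Insig1 and Sqle had an r of 0.85 (permutation p = 0.00087, adjusted p = 0.00232; rho 0.60, p = 0.0208, adjusted p = 0.0417). Stard4 and Sqle had an r of 0.82 (permutation p = 0.00015, adjusted p = 0.0006; rho 0.64, p = 0.0114, adjusted p = 0.0305). Scarb1 and Star, the carrier that brings cholesterol into mitochondria for steroid synthesis, had an r of 0.60 (permutation p = 0.02, adjusted p = 0.0399; rho 0.69, p = 0.00594, adjusted p = 0.0238).

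The Pearson r of these 4 pairs depended on few mice. Without the 2 mice farthest from the median, r was 0.54 for Hmgcs1 and Sqle, 0.51 for Insig1 and Sqle, 0.69 for Stard4 and Sqle and 0.31 for Scarb1 and Star, and in this permutation test no adjusted p was under 0.05. Spearman rho was then 0.64, 0.45, 0.46 and 0.63, in that order (permutation adjusted p = 0.102, 0.261, 0.261 and 0.102). For Hmgcs1 with Sqle and Scarb1 with Star, rho thus stayed near its value over all mice. Srebf2 had an r of 0.20 with Hmgcs1 (permutation p = 0.492, adjusted p = 0.562), 0.36 with Sqle (p = 0.199, adjusted p = 0.318), -0.02 with Idi1 (p = 0.945, adjusted p = 0.945) and 0.21 with Insig1 (p = 0.467, adjusted p = 0.562). The matching rho were 0.25 with Hmgcs1 (permutation p = 0.359), 0.50 with Sqle (p = 0.0574), 0.16 with Idi1 (p = 0.577) and 0.22 with Insig1 (p = 0.433). Without the 2 farthest mice the r of Srebf2 was 0.28 with Hmgcs1, 0.31 with Sqle, -0.03 with Idi1 and 0.14 with Insig1. With the mean of each treatment group removed, the r of Srebf2 was 0.47 with Hmgcs1 (permutation adjusted p = 0.103), 0.50 with Sqle (adjusted p = 0.0798), 0.27 with Idi1 (adjusted p = 0.34) and 0.43 with Insig1 (adjusted p = 0.123). In that setting the Spearman rho with Sqle was 0.57 and passed the permutation test (adjusted p = 0.0475). With right ovaries alone, the permutation test passed for Srebf2 with Hmgcs1 (r = 0.59, adjusted p = 0.0237) and with Sqle (r = 0.64, adjusted p = 0.0108). Left ovaries alone did not pass it, with an r of 0.23 with Hmgcs1 and 0.26 with Sqle (permutation adjusted p = 0.54 for each).

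The first comparison asks whether DSS before puberty left a trace in these genes in the adult ovary. None of the 30 genes changed at an adjusted p under 0.05 (limma on the mean of both ovaries of each mouse, Benjamini-Hochberg over 14646 genes), and neither did any other gene (0% of the 14646). At an unadjusted p under 0.05, 1 gene of the set was past the line, Srebf2, against 7.98% of all tested genes (3.17% as lower in DSS mice). edgeR's quasi-likelihood test on the recovered reads called 6 genes in all (0.041%) and DESeq2 called 52 (0.355%), none of them in the set. Of the 30 genes, 11 had a log2 difference above 0 and 19 below 0, with a median of -0.04, against 50.6% above 0 and a median of 0.0018 over all tested genes. These differences are on the log2(normalized count + 1) scale, which understates the change of low genes.

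In the SREBP control group, Srebf2 encodes SREBP-2, the main activator of cholesterol synthesis genes. The DSS mice had 103.1, 116.9 and 132.2 normalized counts (lowest, median and highest) and the control mice 125.2, 143.2 and 161.7. Every one of the 7 DSS mice was under the median of the controls, and the highest DSS mice overlapped the lowest control mice. Srebf2 averaged 118.5 ± 10.55 in 7 DSS mice and 143.8 ± 13.51 in 8 control mice (SD), a log2 difference of -0.28 (SE 0.07, 95% interval -0.43 to -0.13; limma unadjusted p = 0.0012, adjusted p = 0.287). Over all tested genes, 3.93% had every DSS mouse below the control median.

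The difference of Srebf2 had the same sign on each side. It was -0.25 with left ovaries alone (limma adjusted p = 0.494) and -0.30 with right ovaries alone (limma adjusted p = 0.593). Without the 3 ovaries with low enzymes it was -0.27 (limma adjusted p = 0.329), and without the ovaries over 5000 Ovgp1 it was -0.24 (limma adjusted p = 0.315). DESeq2 gave -0.27 with an adjusted p of 0.0817. Srebf2 lies on the plus strand at chr15:82147266-82205676 (GRCm38). The annotation places the microRNA gene Mir33 and Gm49502 within Srebf2 on the same strand, and the strand setting of the counting is not given in the sources used here.

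Insig2 encodes a protein that holds SCAP and the SREBP precursor in the endoplasmic reticulum. The DSS mice had 36.3, 42.2 and 48.5 normalized counts (lowest, median and highest) and the control mice 33.0, 36.2 and 42.8. All 7 DSS mice were above the control median, as for 4.83% of all tested genes, and the groups overlapped. The log2 difference was 0.19 (SE 0.09, 95% interval -0.01 to 0.38; limma adjusted p = 0.636).

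Insig1, the other INSIG gene and itself an SREBP target, had 52.2, 59.4 and 68.9 in DSS mice and 29.3, 58.3 and 78.6 in control mice (lowest, median and highest). The control mice enclosed the DSS mice at both ends. Its log2 difference was 0.07 (SE 0.16; limma adjusted p = 0.935), and it was -0.04 without the 3 low ovaries. Scap, the SREBP escort protein, had 116.3, 131.4 and 149.6 in DSS mice and 126.8, 140.6 and 163.5 in control mice, a log2 difference of -0.08 (SE 0.07; limma adjusted p = 0.799). Srebf1, which encodes SREBP-1, the lipogenic relative of SREBP-2, was low in all ovaries. It had 7.86, 9.86 and 21.2 in DSS mice and 6.81, 10.7 and 16.6 in control mice, a log2 difference of -0.05 (SE 0.21; limma adjusted p = 0.964). The highest DSS mouse was DSS_11.2, whose left ovary had 27.7.

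Among the 19 synthesis enzymes, 6 had a log2 difference above 0 and 13 below, with a median of -0.04. Fdps, the farnesyl pyrophosphate synthase, had the smallest p of the enzymes. The DSS mice had 54.5, 83.5 and 100.8 normalized counts (lowest, median and highest) and the control mice 57.9, 98.8 and 112.2, with wide overlap. The log2 difference was -0.19 (SE 0.14; limma adjusted p = 0.757). Reads of Fdps may be shared with Gm43738, Rusc1 and several pseudogene copies. For the other enzymes the log2 difference lay between -0.15 (Sc5d) and 0.36 (Idi1), and each 95% interval included 0.

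How closely these enzymes could be compared differed. The 95% interval ran from -0.56 to 1.08 for Hsd17b7 and from -0.33 to 1.05 for Idi1, and was narrowest for Ebp, the sterol isomerase (-0.28 to 0.12), Lbr (-0.26 to 0.17) and Pmvk, the phosphomevalonate kinase (-0.33 to 0.15). Without the 3 low ovaries, Hsd17b7 had a log2 difference of 0.00 (limma adjusted p = 0.998) and Idi1 of 0.17 (limma adjusted p = 0.934). In that fit no gene had an adjusted p under 0.05, and 3 of the 30 genes had an unadjusted p under 0.05, against 7.38% of all tested genes. These were Srebf2, Sc5d with a log2 difference of -0.26 (limma adjusted p = 0.591) and Pmvk with -0.22 (limma adjusted p = 0.644). All 3 were lower in DSS mice, as were 2.95% of all tested genes at that line.

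**Figure D3:**
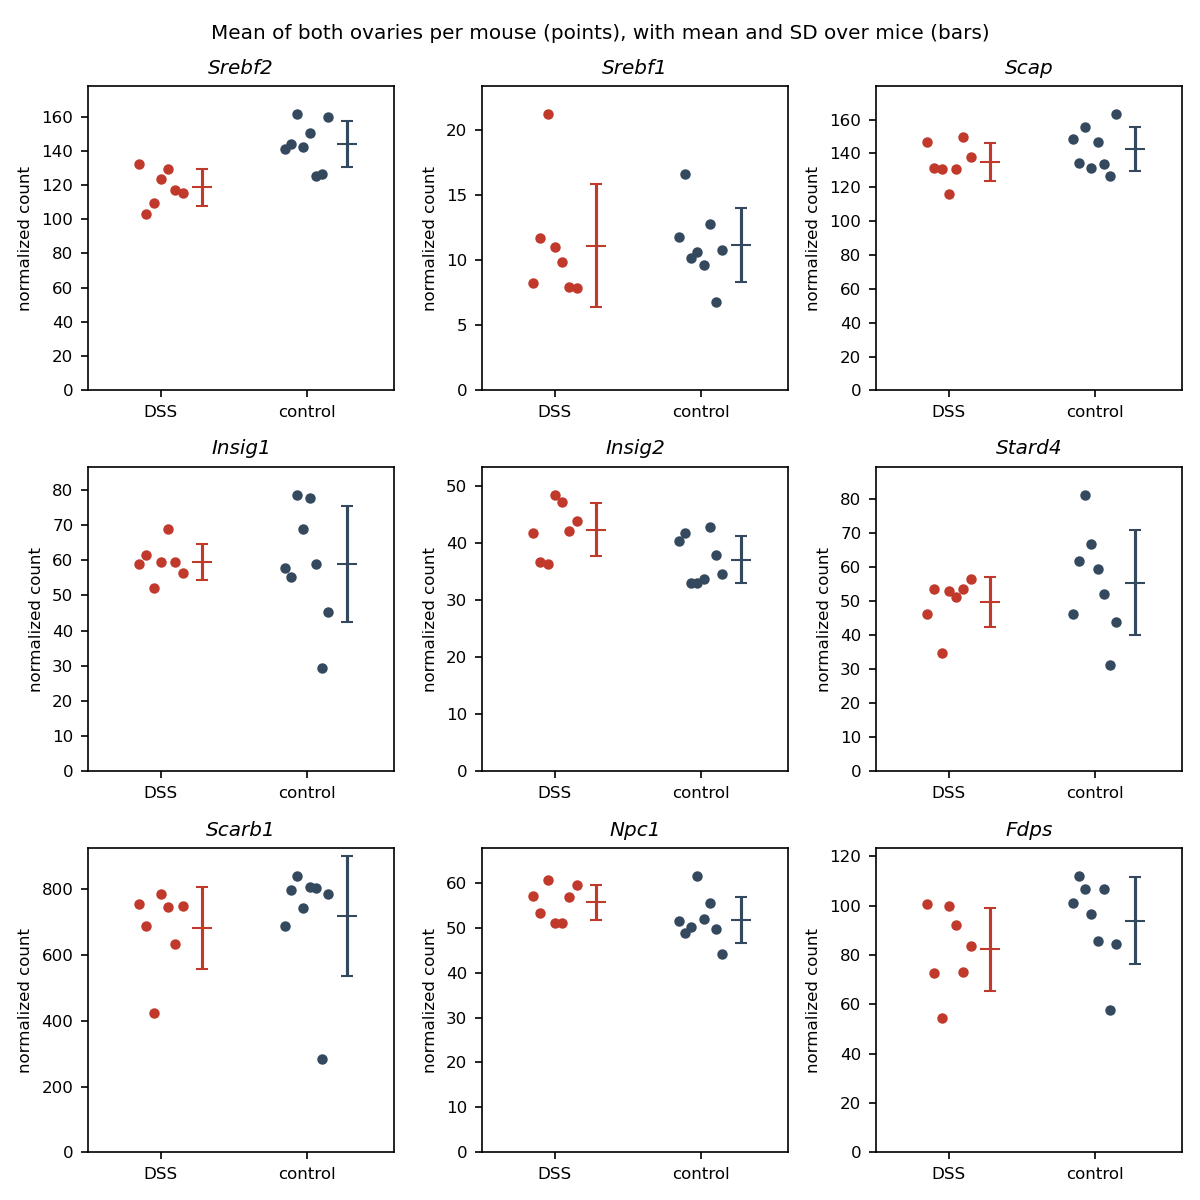
Normalized counts (vertical axes, from 0) of 9 genes in 7 DSS mice (red, left) and 8 control mice (dark blue, right); each point is the mean of both ovaries of a mouse, and bars give the mean and SD over mice. Srebf2 averages 118.5 in DSS mice and 143.8 in control mice, and mouse DSS_11.2 and mouse control_15.3 are the low points of Scarb1 (423 and 283).

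Of the 6 genes of uptake, transport and storage, 3 had a log2 difference above 0 and 3 below. Npc1 had the smallest p of them. The DSS mice had 51.1, 56.8 and 60.5 normalized counts (lowest, median and highest) and the control mice 44.2, 50.8 and 61.5. All 7 DSS mice were above the control median, as for Insig2 and for 4.83% of all tested genes, but a control mouse had the highest value. The log2 difference was 0.11 (SE 0.08; limma adjusted p = 0.738).

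Scarb1 had 423, 745 and 784 in DSS mice and 283, 790 and 840 in control mice (lowest, median and highest). Again the 7 DSS mice were all under the median of the controls, and the lowest mouse was a control. The same held for the enzyme Pmvk (highest DSS mouse 122.7, control median 130.4), and for 3.93% of all tested genes every DSS mouse was below that median. The log2 difference of Scarb1 was -0.03 (SE 0.20; limma adjusted p = 0.974) and -0.10 without the 3 low ovaries (limma adjusted p = 0.739). Stard4 had 34.7, 52.9 and 56.4 in DSS mice and 31.2, 55.8 and 81.2 in control mice, a log2 difference of -0.11 (SE 0.16; limma adjusted p = 0.883). For Soat1 the log2 difference was 0.05 (SE 0.12), for Npc2 0.02 (SE 0.12) and for Abca1 -0.08 (SE 0.07).

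Other genes of sterol and lipid handling were counted in 5 lists, and in limma with adjustment over all genes none of them changed. Of the 8 tested genes of other synthesis and lipoprotein uptake, 4 were above 0 and 4 below, and the smallest p belonged to Ggps1, which makes geranylgeranyl pyrophosphate (log2 difference -0.18, limma adjusted p = 0.681), and Lrp1, a large lipoprotein receptor (-0.16, limma adjusted p = 0.764). Of 9 genes that process SREBPs or degrade sterol-sensing proteins, 5 were above 0 and 4 below; Mbtps1, the site-1 protease that cuts SREBPs, had -0.07 (limma adjusted p = 0.726) and Sec23a, a coat protein of vesicles that leave the endoplasmic reticulum, -0.10 (limma adjusted p = 0.804).

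Of 12 lipogenic genes driven by SREBP-1, 9 were above 0 and 3 below. Acss2, an acetyl-CoA synthetase, averaged 46.1 ± 4.9 in DSS mice and 37.5 ± 8.4 in control mice (SD; log2 difference 0.32, limma adjusted p = 0.577), and Me1, malic enzyme, had -0.17 (limma adjusted p = 0.648). Of the 7 tested genes of LXR, the oxysterol receptor, and sterol export, 5 were above 0 and 2 below. Nr1h2, which encodes LXR-beta, averaged 296.8 ± 17.6 in DSS mice and 331.4 ± 15.6 in control mice (SD; log2 difference -0.16, limma adjusted p = 0.398), and Lpcat3, an LXR target that remodels phospholipids, had -0.18 (limma adjusted p = 0.617). Of 15 genes of ester hydrolysis, transport and steroid use, 7 were above 0 and 8 below; Fdxr, the reductase that feeds electrons to mitochondrial steroid enzymes, had -0.19 (limma adjusted p = 0.544) and Lipa, the lysosomal acid lipase, -0.16 (limma adjusted p = 0.643).

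Marker sums of both groups are given beside these results. The sums overlapped between the groups and were not tested, and limma called no marker at an adjusted p under 0.05. The oviduct sum per mouse ran from 332 to 34670 (median 2836) in DSS mice and from 198 to 21575 (median 1118) in control mice. All 8 oviduct markers had a log2 difference above 0, with a median of 1.12. The sum of 6 stratified epithelium markers ran from 81.5 to 3708 (median 173) in DSS mice and from 205.4 to 3278 (median 1140) in control mice. All 6 had a log2 difference below 0, with a median of -1.89. Of these 6, 5 had an unadjusted limma p under 0.05, against 3.17% of all tested genes as lower in DSS mice. The adipocyte sum ran from 282 to 5174 (median 1061) in DSS mice and from 153 to 3376 (median 384) in control mice, and all 6 tested adipocyte markers had a log2 difference above 0. The oocyte sum ran from 840.3 to 1475 (median 1036) in DSS mice and from 982 to 1578 (median 1265) in control mice, and all 7 markers were below 0, with a median log2 difference of -0.16. The granulosa sum ran from 11496 to 18905 (median 15986) in DSS mice and from 14751 to 19883 (median 18022) in control mice, and 7 of 8 markers were below 0, with a median log2 difference of -0.17. The luteal sum ran from 1792 to 3826 (median 3235) in DSS mice and from 995 to 4024 (median 2870) in control mice. Of the macrophage markers 5 were above 0 and 1 below, as for the surface epithelium markers, and all 5 erythroid markers were above 0. For endothelium 2 were above 0 and 3 below, and for theca and interstitial markers 1 was above and 3 below. With the oviduct level as a covariate Srebf2 had a log2 difference of -0.31 (limma adjusted p = 0.253). The part of the other cell types was not tested.

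**Figure D4:**
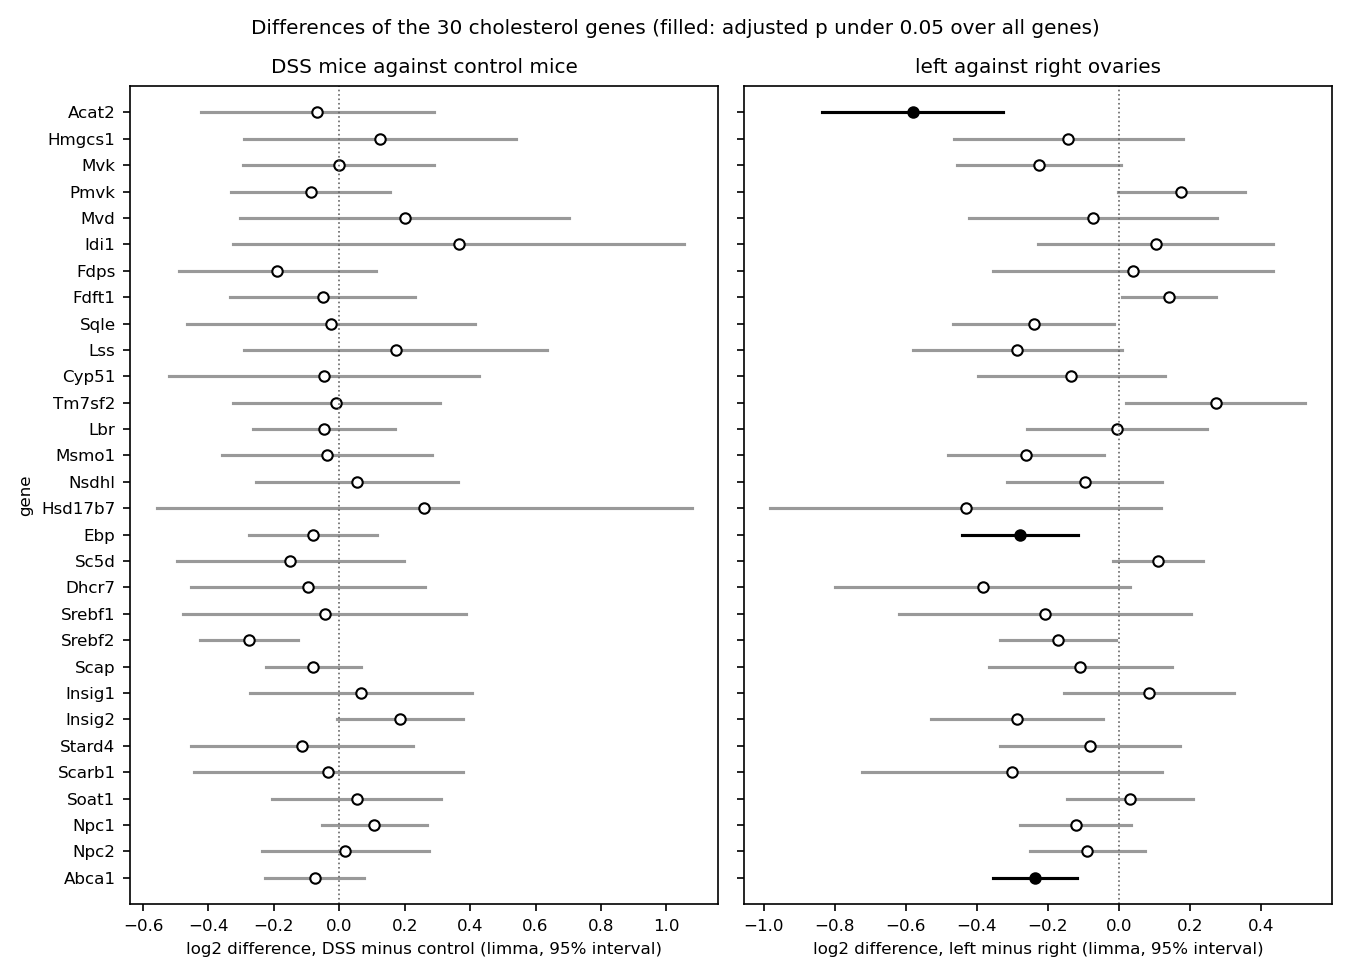
Log2 differences of the 30 genes (rows) with 95% intervals from limma, DSS minus control mice on the left panel and left minus right ovaries on the right panel; filled points have an adjusted p under 0.05 over all 14646 genes. No point is filled for DSS against control, and Acat2, Abca1 and Ebp are filled, below 0, for left against right.

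The second comparison is between the left and right ovaries of the same 15 mice. 3 of the 30 genes passed an adjusted p of 0.05 (limma with the mouse as a block), against 10.2% of all tested genes, so the share in the set was near the background. All 3 were lower on the left: Acat2, Abca1 and Ebp. Over all tested genes, 5.6% were called lower and 4.56% higher on the left. Of the 30 genes, 8 had a log2 difference, left minus right, above 0 and 22 below, with a median of -0.13, against 51.5% above 0 and a median of 0.0068 over all tested genes.

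Acat2 encodes the cytosolic acetyl-CoA acetyltransferase at the first step of the pathway, and lies on the minus strand at chr17:12942590-12960747 (GRCm38). Left ovaries had 47.7, 133 and 168 normalized counts (lowest, median and highest) and right ovaries 94.7, 175 and 274. The left ovary was lower in 13 of 15 mice, although the sides overlapped. The means were 125.0 ± 35.9 on the left and 184.1 ± 48.5 on the right (SD, n = 15 mice), a log2 difference of -0.58 (SE 0.12; limma adjusted p = 0.0045). The 3′ part of Acat2 shares 550 stretches of 31 bases with its neighbour Acat3, so reads of the pair may not be separable and this call is uncertain as to the gene.

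Abca1 (minus strand, chr4:53030487-53159895) had 593, 684 and 873 in left ovaries and 677, 863 and 990 in right ovaries (lowest, median and highest). The left ovary was lower in 13 of 15 mice, and the log2 difference was -0.24 (SE 0.06; limma adjusted p = 0.0103). Ebp (minus strand, chrX:8185029-8193512) had 55.4, 62.7 and 98.6 in left ovaries and 61.0, 80.7 and 102.9 in right ovaries. The left ovary was lower in 12 of 15 mice, all 7 DSS mice among them, and the log2 difference was -0.28 (SE 0.08; limma adjusted p = 0.026). The call for Ebp was lost without mouse control_16.9 (limma adjusted p = 0.0537), without the mice over 5000 Ovgp1 (limma adjusted p = 0.296), without the mice holding a low ovary (limma adjusted p = 0.0525) and with DESeq2 (adjusted p = 0.0508).

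Insig2 and Msmo1 had the next smallest p. Insig2 had 21.5, 38.6 and 51.1 in left ovaries and 32.4, 42.2 and 57.4 in right ovaries, a log2 difference of -0.29 (SE 0.12; limma adjusted p = 0.127) with the left lower in 12 of 15 mice. Msmo1 had 333, 827 and 1182 in left ovaries and 581, 1008 and 1548 in right ovaries, a log2 difference of -0.26 (SE 0.11; limma adjusted p = 0.128) with the left lower in 13 of 15 mice. Of the other genes of control and uptake, Srebf2 had a log2 difference of -0.17 (limma adjusted p = 0.188), Srebf1 -0.21 (0.582), Scap -0.11 (0.651), Insig1 0.08 (0.720), Stard4 -0.08 (0.740) and Scarb1 -0.30 (0.399), the value in brackets being the limma adjusted p. The difference of Scarb1 was -0.10 without mouse DSS_11.2 (limma adjusted p = 0.658) and -0.12 without the mice holding a low ovary (limma adjusted p = 0.621).

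Within the treatment groups fewer calls were made. In the 7 DSS mice alone no gene of the set passed, against 0.785% of all tested genes; the unadjusted limma p was 0.0111 for Acat2, 0.0013 for Abca1 and 0.0012 for Ebp. In the 8 control mice alone 1 passed, Acat2 (limma adjusted p = 0.0296), against 2.62% of all tested genes. Without the mice holding a low ovary, Acat2 (log2 difference -0.47, limma adjusted p = 0.0108) and Abca1 (-0.21, limma adjusted p = 0.0187) passed, and Sc5d passed as higher on the left (0.17, limma adjusted p = 0.0414), against 9.37% of all tested genes. The sum of the stratified epithelium markers ran from 126 to 6520 on the left (median 523) and from 36.7 to 896 on the right (median 128), and all 6 of them were called higher on the left. The part of that tissue in the side differences was not tested.

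**Figure D5:**
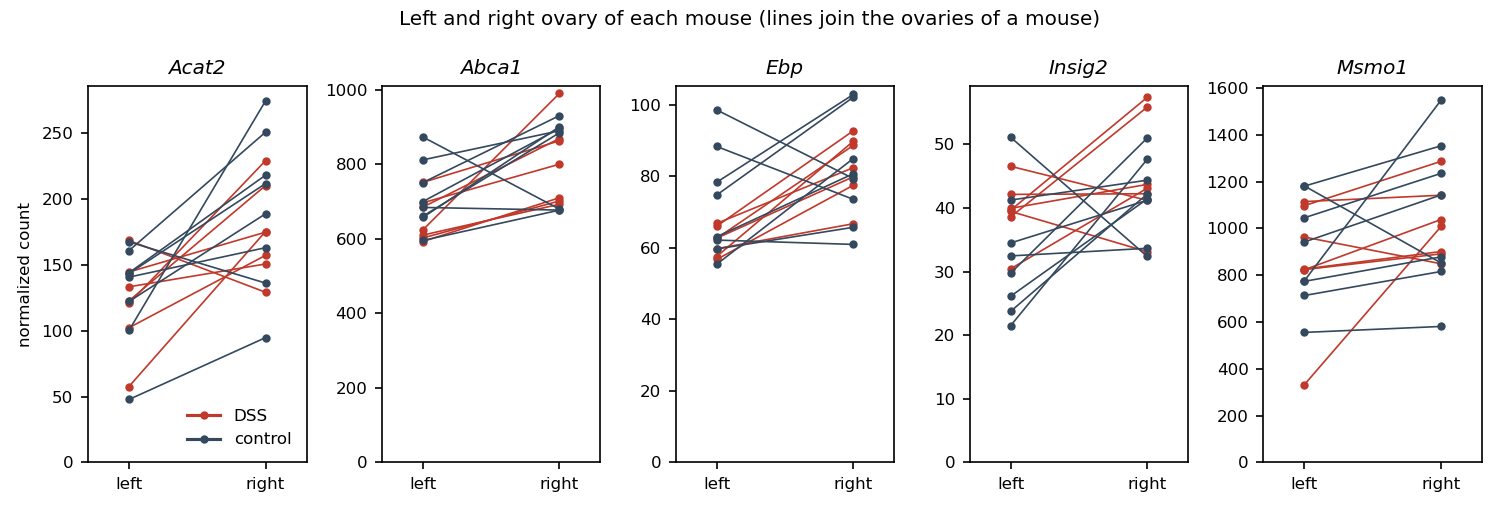
Normalized counts (vertical axes, from 0) of the 5 genes with the smallest p in the left and right ovary of each mouse, joined by a line (red, 7 DSS mice; dark blue, 8 control mice). The right ovary is higher in 13 of 15 mice for Acat2, Abca1 and Msmo1 and in 12 of 15 for Ebp and Insig2.

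The last comparison asks whether the DSS difference depended on the side. No gene of the set passed an adjusted p of 0.05 (limma on each mouse's left minus right difference), and neither did any of the 14646 genes (0%). At an unadjusted p under 0.05, 1 gene of the set was past the line, Scap, against 8.52% of all tested genes. In left ovaries Scap had a log2 difference, DSS minus control, of -0.38, and in right ovaries of 0.18. The difference of the 2 was -0.56 (SE 0.22; limma unadjusted p = 0.0189, adjusted p = 0.542). The left ovary of mouse DSS_11.2, with 61.8 normalized counts against 199.5 in its right ovary, was the lowest library of Scap and that right ovary the highest, and without this mouse the difference was -0.35 (limma adjusted p = 0.812). Pmvk had the next smallest p, with a difference of 0.29 (SE 0.16; limma adjusted p = 0.636).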

How the data were processed

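The sequenced libraries were CEL-Seq libraries of single ovaries; per the labels' protocols, each sample was barcoded with a pool of 3 primers. TopHat, HTSeq, DESeq2 and GRCm38.p5 are named in the submitters' processing notes; versions of the tools are not given in the sources used here. The authors deposited 1 table of normalized counts (a signal divided by a size factor per library). The strand setting is not given in the sources used here, so overlapping genes on either strand are uncertain. From the step of the lowest values, whole reads were recovered for 99.93% to 100% of the values above 0 in each library (tolerance 0.0051 normalized counts). The 3′ overlap of genes was checked with shared stretches of 31 bases in the last 500 bases of transcripts.

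The mouse was the replicate. limma 3.58.1 with trend was fitted on log2(value + 1) over the 14646 genes with a mean of 5 or more, with Benjamini-Hochberg adjustment over all of them: on the mean of both ovaries for DSS against control, with the mouse as a block for left against right, and on each mouse's left minus right difference for their interaction. The numbers in the labels name the animal, so the left and right ovaries are paired; same-mouse ovaries had a mean r of 0.14 of their deviations (from -0.27 to 0.37), and ovaries of other mice -0.01. Alternatives used edgeR 4.0.16, DESeq2 1.42.0 on recovered reads, other scalings, filters and subsets of ovaries. The scripts were tested on simulated data. The genes and lists, and the rule for named genes (the control genes with Stard4 and Scarb1, the 5 smallest p per comparison, the 2 smallest p per other list and the 5 genes most like the enzymes), were chosen with earlier results of these data known. The 3 low ovaries were set apart after seeing the data.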

Additional observations from a re-analysis of the deposited data

Results flagged for a closer look

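In 60 groups checked (30 genes in DSS mice and in control mice, mean of both ovaries), 9 had a mouse far from the rest by Dixon's test at the 95% level; chance flags about 1 in 20 groups. Of the DSS mice, DSS_11.2 was low for Mvd (139.18 normalized counts, nearest other mouse 203.6) and for Scarb1 (422.77, nearest 632.6) and high for Srebf1 (21.22, nearest 11.7). Mouse DSS_11.1 was high for Sc5d (2178.29, nearest 1613). Of the control mice, control_15.3 was low for Acat2 (71.205, nearest 151.7), Nsdhl (79.88, nearest 148.4), Hsd17b7 (166.49, nearest 1231), Scarb1 (283.315, nearest 688) and Npc2 (259.4, nearest 413). Of these 9, 8 belong to the mice that hold the 3 ovaries with low synthesis enzymes. Those ovaries were picked by the levels of the same enzymes, so this overlap follows in part from that choice. Many of the 30 genes move together, so the 9 flags are not independent of each other.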

How the results depend on the processing

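No gene of the set was called for DSS against control or for its interaction with side under any alternative run, and the log2 difference of Srebf2 was between -0.31 and -0.24 in all of them (-0.30 to -0.24 with a mouse left out). Over all genes the DSS calls ran from 0 to 13 with a mouse left out, 13 without mouse DSS_15.1. The labels' number before the point is shared by DSS and control mice, with no stated meaning; same-numbered mice had a mean r of 0.06 (lowest -0.46), so no pairing was assumed. With that number as a replicate block, 0 genes of the set and 3 of all genes were called, and Srebf2 had -0.29 (limma adjusted p = 0.304). With no replicate block for the mouse, left against right called 3 genes of the set. Signs turned for differences within their error. For DSS against control, Scap was 0.18 with right ovaries only and 0.016 without ovaries over 5000 Ovgp1, Insig1 was -0.062 with left ovaries only and -0.039 without the low ovaries, Stard4 was 0.051 with left ovaries only, and Scarb1 was 0.015 with right ovaries only and 0.055 without ovaries over 5000 Ovgp1. With a mouse left out, Srebf1 ran from -0.20 to 0.036 (above 0 without DSS_10.4, at 0.0071, DSS_15.1, at 0.017, DSS_16.3, at 0.018, and control_10.6, at 0.036), Insig1 from -0.066 (without control_15.3) to 0.13 and Scarb1 from -0.22 to 0.076 (above 0 without DSS_11.2, at 0.076, and control_11.4, at 0.0074). For left against right, Scap was 0.15 in control mice only and 0.0018 without the mice with a low ovary (-0.18 to 0.0025 with a mouse left out), Insig1 was -0.068 in DSS mice only and Stard4 was 0.079 in DSS mice only. Left against right called 0 genes of the set in DSS mice only, 1 in control mice only and 2 to 4 with a mouse left out; 3 more genes passed in some of these fits: Sc5d without DSS_11.2, Lss without control_15.4 and Insig2 without control_10.6 (limma adjusted p = 0.0369, 0.0331 and 0.0466, in that order). The interaction of Pmvk was -0.0067 without mice over 5000 Ovgp1. Over mice, the correlations of Hmgcs1, Insig1 and Stard4 with Sqle and of Scarb1 with Star no longer passed the threshold without the 2 farthest mice (0.54, 0.51, 0.69 and 0.31, in that order) or without the low ovaries (0.54, 0.55, 0.58 and 0.30). That of Srebf2 with Hmgcs1 was 0.59 with right ovaries only, 0.23 with left ovaries only and -0.038 without the low ovaries. With Sqle it was 0.64 with right and 0.26 with left ovaries only. With Idi1 it was 0.27 with group means removed, 0.00077 with TMM factors, 0.39 with right and -0.11 with left ovaries only. With Insig1 it was -0.12 with left ovaries only. The cause was not tested. Depth limits Srebf1 most, at 2.94 to 27.7 normalized counts per library.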
